A study of Mus musculus with 9 samples.

Results

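The endoplasmic reticulum (ER) genes described here are 42 genes for chaperones, disulfide and prolyl isomerases, translocon subunits, factors of ER-associated degradation (ERAD) and the sensors of the unfolded protein response (UPR). They were chosen by symbol from the 52459 genes of the deposited count table, and Ufd1l is listed there as Ufd1. All 42 were found, and all 42 were among the 16826 genes that passed the filter on low counts, with no count below 273 in any library.

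RNA sequencing was done on islets of Langerhans, the endocrine part of the pancreas, from 12-week-old mice. The 9 libraries fall into 3 groups of 3: db/db (homozygous for the db allele of the leptin receptor gene Lepr), db/+ (heterozygous) and WT (wild type at that locus). Every sample carries the same strain label, on the BKS background. Mice homozygous for db lack a working long form of the leptin receptor and are widely used as a model of obesity with diabetes. The labels do not say whether libraries came from separate or pooled animals, nor the sex of the animals, so the spread behind every p-value is that among libraries and may be technical.

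The ER is where insulin and other secreted proteins are folded. BiP (Hspa5) and its partners bind unfolded chains, protein disulfide isomerases pair their cysteines, and chains that fail are passed through the membrane and degraded by ERAD. When unfolded chains build up, the sensors IRE1α (Ern1), ATF6 (Atf6) and PERK (Eif2ak3) start the UPR, and 2 of its transcription factors, the spliced form of XBP1 and the cleaved form of ATF6, raise many of these same genes. Beta cells, which make very large amounts of proinsulin, depend on this system.

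Total counts were 8860024 to 9260105 in db/db, 11164775 to 11734886 in db/+ and 9558955 to 11473420 in WT libraries, and 3 counts amount to 0.238 to 0.412 CPM. CPM are counts scaled to the normalised library size. Counts of Lepr were low in every library (2.05 to 9.47 CPM in db/db, 1.52 to 4.37 CPM in db/+ and 1.72 to 3.17 CPM in WT), and because db alters the splicing of this gene, counts over the whole gene do not check the genotype. Libraries stood apart in several ways. Summed Y-linked CPM were 176, 1.11 and 0.108 in db/db libraries, against 373 to 417 in db/+ and 219 to 343 in WT libraries. Xist was at 308, 948 and 858 CPM in db/db, at most 0.506 CPM in db/+, and at 565, 0.722 and 596 CPM in WT libraries. The share of counts on Gm42418 and Lars2, loci where ribosomal RNA reads often collect, was 17.9%, 13.3% and 0.0558% in db/db, 0.0220% to 0.0237% in db/+ and 1.89% to 2.58% in WT libraries. The labelled tissue matched its markers, with summed beta cell marker CPM of 91969 to 125208 in db/db, 104206 to 116249 in db/+ and 83874 to 121523 in WT libraries. However, 24 acinar markers, none of them at 0, summed to 20126 to 56302 CPM in db/db, 16478 to 37652 CPM in db/+ and 7093 to 13443 CPM in WT libraries.

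In db/db islets most of the ER genes were higher than in WT islets. With edgeR's quasi-likelihood test at an adjusted p under 0.05, 32 of 42 rose, none fell and 10 did not pass, and 13 of the 32 rose over 2-fold. Over all 16826 genes tested, 21.8% were higher, 19.9% lower and 41.7% changed in either direction in the same comparison. The median log2 fold change was 0.59 for the 42 genes, with quartiles of 0.25 and 1.03, and 0.01 for all genes, with quartiles of -0.33 and 0.43. All db/db libraries lay above all WT libraries for 31 of the 42 (26.2% of all genes) and below them for 1, Canx (25.3% of all genes). These are bulk libraries, in which more cells of one kind and more RNA per cell cannot be told apart.

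The sum of the 42 genes showed the same order. It was 25273, 26803 and 30128 CPM in db/db libraries, 21463, 20402 and 20357 CPM in db/+ libraries and 15403, 19058 and 18496 CPM in WT libraries. Within the WT and db/db groups most of the genes shared an extreme library. WT 1 was the lowest WT library for 41 of the 42 (33.6% of all genes), and db/db 3 was the highest db/db library for 37 (30.9% of all genes). In db/+ the genes were split: the lowest library was db/+ 1 for 15, db/+ 2 for 13 and db/+ 3 for 14. The highest was db/+ 1 for 15, db/+ 2 for 4 and db/+ 3 for 23. Without WT 1 the median log2 fold change of the 42 genes in db/db against WT was 0.43, against 0.59 with all libraries. In that fit 29 of them were higher (18.4% of all genes).

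**Figure D1:**
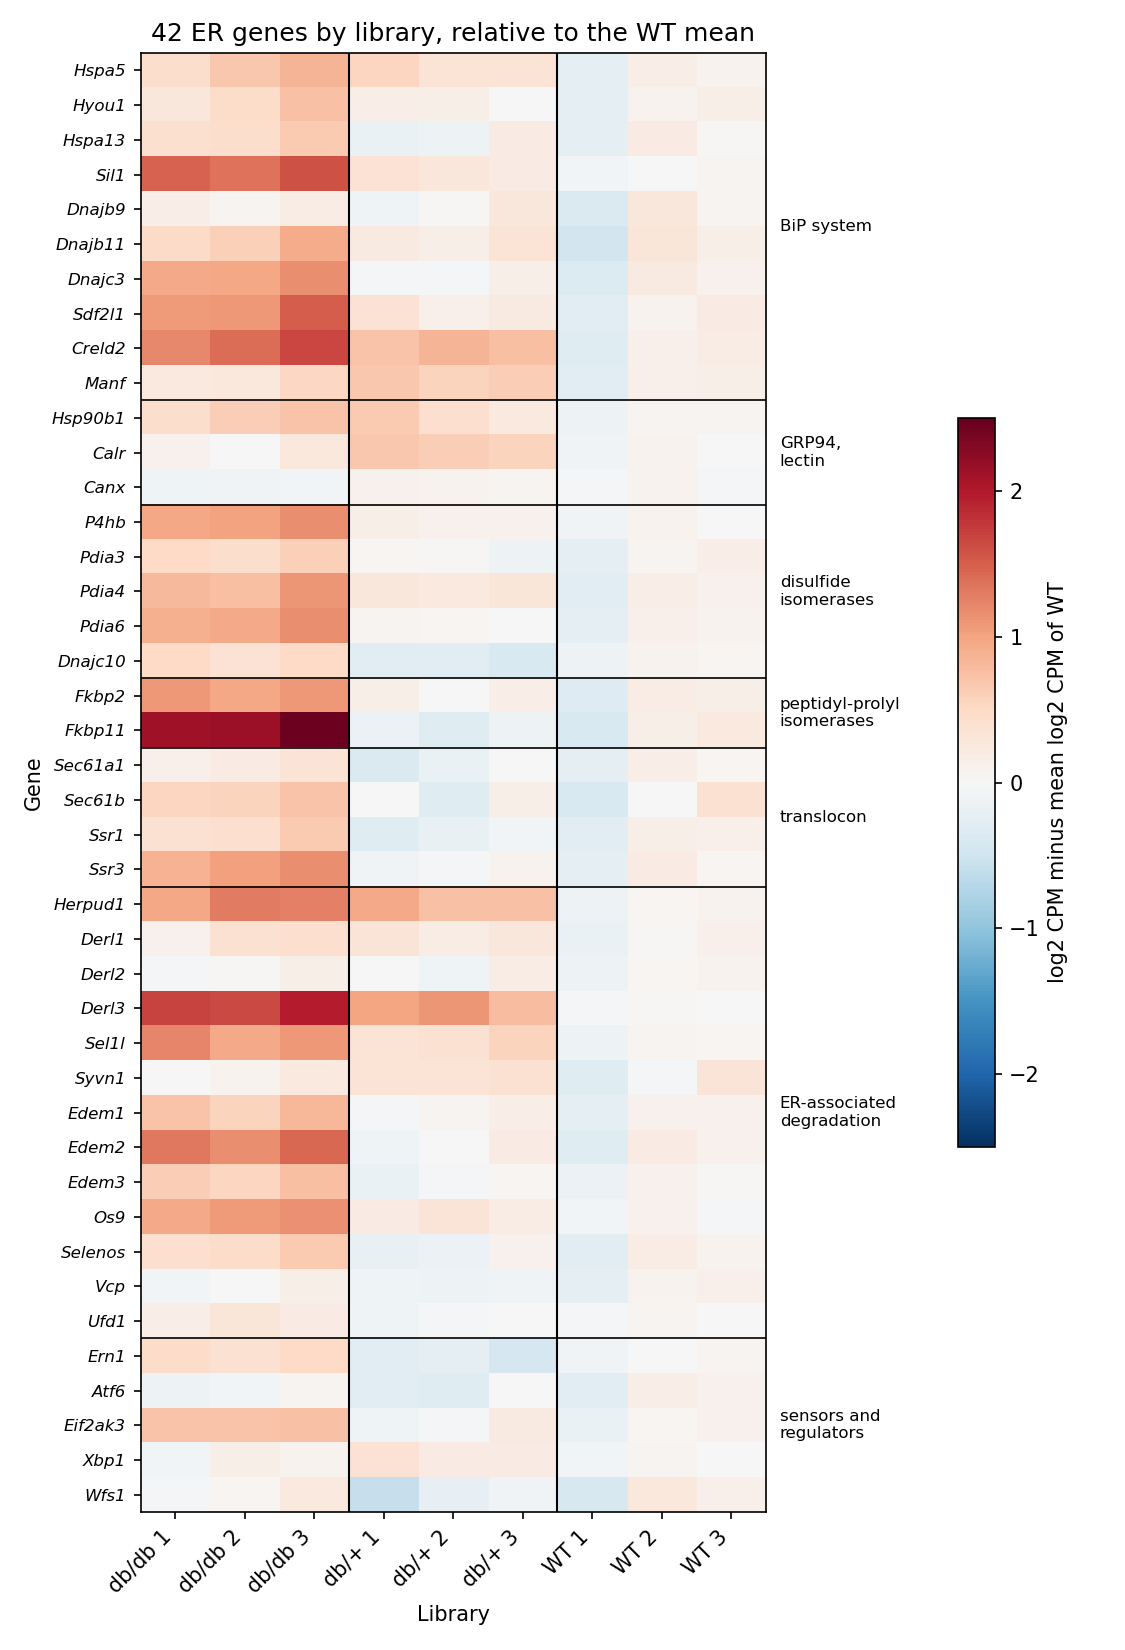
Log2 CPM of each of the 42 ER genes (rows, by role) in each of the 9 libraries (columns, db/db, then db/+, then WT), minus the mean log2 CPM of the gene in WT; blue is lower and red higher. Most rows are red in the 3 db/db columns, Fkbp11 deepest, and Creld2, Manf, Calr, Herpud1 and Derl3 are red in the db/+ columns too.

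Against db/+ islets, 28 of the 42 genes were higher in db/db islets, 1 (Calr) was lower and 13 did not pass. Over all genes tested, 20.6% were higher, 19.7% lower and 40.3% changed. The median log2 fold change was 0.60, against 0.01 for all genes. All db/db libraries lay above all db/+ libraries for 31 of the 42 (26.2% of all genes) and below them for 5 (26.0%). The db/db libraries served in both comparisons, so the 2 counts are not separate evidence. In 28 of the 42 genes (20.2% of all genes), every db/db library lay above all 6 others.

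Between db/+ and WT islets fewer ER genes differed than in the comparisons with db/db, but a larger share than of all genes. Creld2, Manf, Calr, Herpud1, Derl3 and Sel1l were higher in db/+ (6 of 42, 14.3%), none was lower and 36 did not pass. Of all genes tested, 0.606% were higher, 0.820% lower and 1.43% changed. The median log2 fold change was 0.06 for the 42 genes and 0.02 for all genes. Without WT 1, the lowest WT library for 41 of the 42, the median of the 42 genes was -0.05, with 5 higher and 1 lower. All db/+ libraries lay above all WT libraries for 15 of the 42 (12.1% of all genes) and below them for 2 (10.4%). The count of 6 depended on single libraries, falling to 2 without db/+ 1 or without db/+ 2, and to 3 without db/+ 3, without WT 3 or without db/db 2. It was also 3 without the 3 libraries with both Xist and Y-linked counts, where WT 2 alone stood for WT. Herpud1 and Derl3 kept their call whichever library was left out. The mean of db/+ lay between the other 2 means for 21 genes, was the highest for 5 and the lowest for 16.

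**Figure D2:**
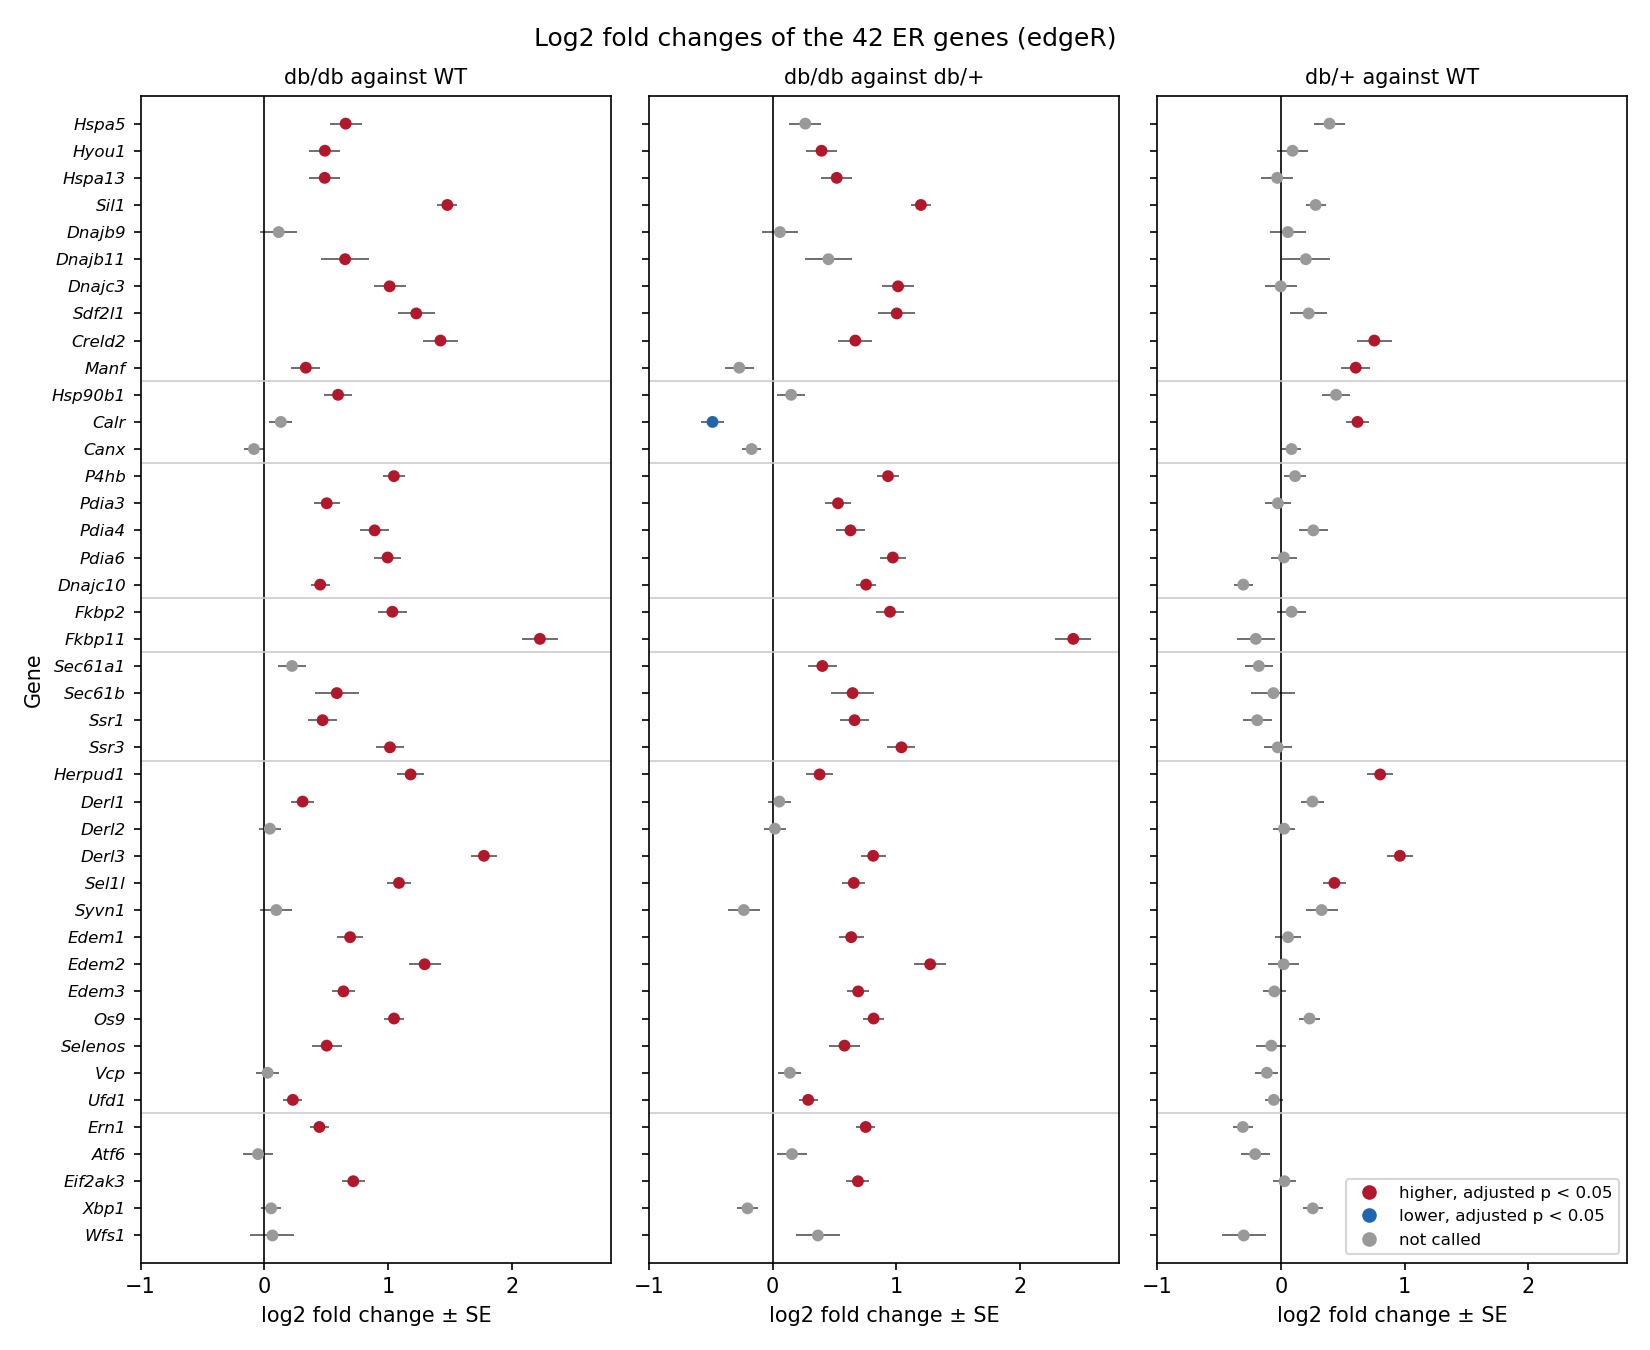
Log2 fold changes (points) with their SE (lines) of the 42 ER genes in db/db against WT, db/db against db/+ and db/+ against WT; red points were higher and blue points lower at an adjusted p under 0.05, and grey points did not pass. There are 32 red points for db/db against WT, 28 red and 1 blue for db/db against db/+, and 6 red for db/+ against WT.

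Several library properties moved with genotype. Scaling to library totals alone, without TMM factors, moved the median log2 fold change of all genes in db/db against WT to -0.22 and the share of higher among called genes to 29%, against 52.3% with TMM factors. The median of the 42 genes was then 0.38, and 20 of them were higher (12.9% of all genes). For db/db against db/+ this scaling left 22 of the 42 higher (12% of all genes) and 5 lower, with 27.6% of all called genes higher, against 51.1% with TMM factors. With summed Y-linked counts as a covariate, 21 of 42 genes were called higher in db/db against WT (16.1% of all genes in the same fit) and 19 in db/db against db/+ (14.9%). Only db/db 2 and db/db 3 had few Y-linked counts. The effect of this covariate therefore rests mainly on db/db 1 against those libraries, and the fit cannot adjust for sex across groups. All db/db libraries have sample titles that begin with H and all db/+ libraries titles that begin with G, while 2 WT titles begin with G and 1 with H. What the letter stands for is not given. With the letter as a covariate, whose effect then rests on WT 3 against the other 2 WT libraries, 22 genes were higher in db/db against WT (12.9% of all genes) and 14 in db/db against db/+ (5.98%). Among libraries with the letter H, all 3 db/db libraries lay above the single WT library for 33 of the 42 genes (37.5% of all genes) and below it for 3 (37.4%). Among those with G, all 3 db/+ libraries lay above both WT libraries for 16 genes (15.6% of all genes) and below them for 2 (13.9%). When the 3 libraries with both Xist and Y-linked counts (db/db 1, WT 1 and WT 3) were left out, 28 of the 42 were higher in db/db against WT (13.1% of all genes) and 31 in db/db against db/+ (19.3%). WT 2 was then the only WT library, and its spread was taken to be that of the other groups. Without the 2 libraries with most Gm42418 and Lars2 counts (db/db 1 and db/db 2) these counts were 30 (14.5% of all genes) and 27 (13.5%). That fit has db/db 3 as the only db/db library, which was the highest of the db/db libraries for 37 of the 42 genes, and its spread was likewise taken from the other groups. The labels give neither sex nor batch, and the part of either in these differences was not tested beyond these values.

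Markers of other cells also differed between db/db and WT islets. Of the 24 acinar markers 17 were higher in db/db than in WT islets (21.8% of all genes tested) and 2 than in db/+ islets (20.6% of all genes, a larger share). Acinar cells carry a dense ER, and Pdia2, a disulfide isomerase made mainly by them, was at 30.9, 12.0 and 12.2 CPM in db/db libraries, against 8.57, 9.62 and 20.2 CPM in db/+ libraries and 8.73, 2.35 and 3.56 CPM in WT libraries. It did not pass (1.86 ± 0.66, adjusted p = 0.0629, for db/db against WT). Bhlha15 (MIST1), a factor of acinar and other secretory cells, was at 85.5, 72.2 and 79.7 CPM in db/db libraries, against 37.6, 52.6 and 64.9 CPM in db/+ libraries and 49.5, 74.4 and 72.4 CPM in WT libraries. It did not pass either (0.28 ± 0.21, adjusted p = 0.336). Within groups the acinar sum and the ER genes did not have the same order: db/db 1 had the highest acinar sum of the db/db libraries (56302 CPM) and the lowest sum of the 42 ER genes. Likewise WT 1 had the highest acinar sum of the WT libraries (13443 CPM) and the lowest ER sum. These libraries also differed in other ways. The share of counts on Gm42418 and Lars2 was 17.9% in db/db 1, and WT 1 had the lowest beta cell marker sum of the WT libraries (83874 CPM). What these orders owe to acinar cells was not tested. Both db/db 2 and db/db 3 had acinar sums (20126 and 20892 CPM) below that of db/+ 3 (37652 CPM), and 34 of the 42 ER genes were higher in both of them than in db/+ 3 (42.4% of all genes). With the acinar mean as a covariate, 26 genes were higher in db/db against WT (10.6% of all genes) and 31 in db/db against db/+ (18.5%). This mean (log2) was 8.47 to 9.87 in db/db, 7.85 to 9.03 in db/+ and 6.76 to 7.58 in WT libraries. Its effect is set by differences within groups, db/db 1 among them. Because db/db and WT do not overlap in it, the fit cannot tell acinar share from genotype between them.

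Stellate and fibroblast markers summed to 741 to 2012 CPM in db/db, 225 to 351 CPM in db/+ and 219 to 331 CPM in WT libraries, with 7 of 10 higher in db/db than in WT. Duct markers summed to 721 to 1250 CPM in db/db, 321 to 352 CPM in db/+ and 294 to 305 CPM in WT libraries, with 6 of 7 higher in db/db than in WT. Macrophage markers summed to 159 to 240 CPM in db/db, 92.3 to 115 CPM in db/+ and 91.7 to 117 CPM in WT libraries (4 of 10 higher than in WT). Endothelial markers summed to 657 to 891, 563 to 634 and 576 to 627 CPM in db/db, db/+ and WT libraries (6 of 10 higher than in WT). No marker of these 4 lists was at 0 in all libraries. B and plasma cell markers were near the floor in most libraries, with sums of 1.61 to 38.8 CPM in db/db, 2.2 to 20.7 CPM in db/+ and 2.64 to 14.8 CPM in WT. Tnfrsf17 was at 0 in all 9 libraries, and Jchain and Ms4a1 were among those at 0 in some. Of 10 beta cell markers 7 were lower and 1 higher in db/db than in WT islets, and all 5 alpha cell markers were lower. Over all genes tested, 21.8% were higher and 19.9% lower in db/db than in WT islets. The part of these other cells in the ER result was not tested. For acinar cells a covariate fit was made, which cannot tell acinar share from genotype between db/db and WT.

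**Figure D3:**
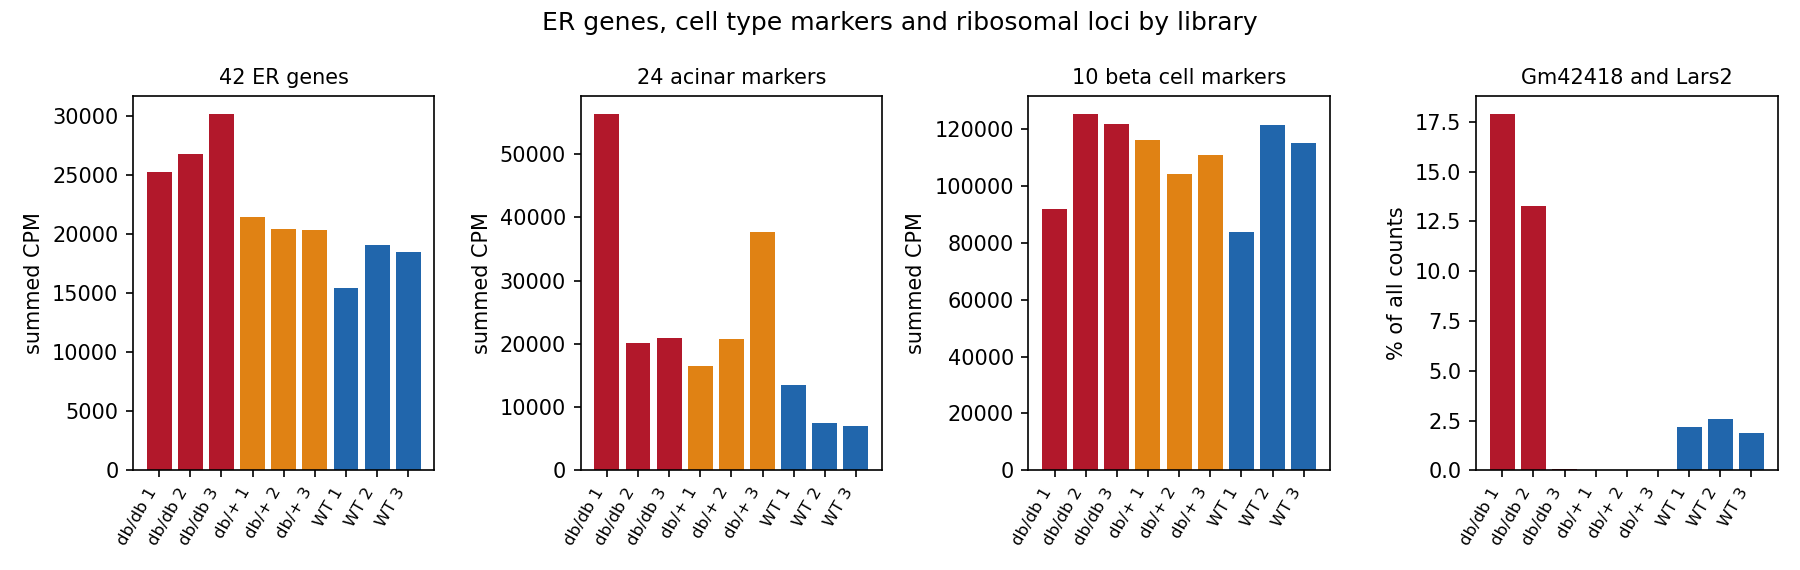
Summed CPM of the 42 ER genes, of 24 acinar markers and of 10 beta cell markers, and the percentage of all counts on Gm42418 and Lars2, as 1 bar per library, db/db (red), then db/+ (orange), then WT (blue). The ER sum of each db/db library is above that of every db/+ and WT library, while the acinar sum of db/+ 3 is above those of db/db 2 and db/db 3.

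BiP, the Hsp70 of the ER lumen, came from Hspa5 (chr2:34772090-34776529, GRCm38, the assembly of mm10). It had the highest level of the 42 genes per length of transcript, with 1184 ± 169 CPM per kb in db/db, 987 ± 77.5 in db/+ and 752 ± 109.9 in WT islets (SD, n = 3 each). At the other end of the 42 were Derl2, at 15.8 ± 1.05, 15.6 ± 1.64 and 15.4 ± 1.14 CPM per kb in db/db, db/+ and WT islets, and Ufd1, at 15.4 ± 0.828, 12.6 ± 0.450 and 13.2 ± 0.557. Hspa5 was at 3553, 4187 and 4742 CPM in db/db libraries, against 3780.5, 3317 and 3302 CPM in db/+ libraries and 2207, 2948 and 2767 CPM in WT libraries. All db/db libraries lay above all WT libraries, while the lowest of them was below the highest db/+ library. Its log2 fold change was 0.66 ± 0.13 (adjusted p = 0.00114) for db/db against WT, 0.26 ± 0.13 (adjusted p = 0.118) for db/db against db/+ and 0.39 ± 0.13 (adjusted p = 0.156) for db/+ against WT. Its call against WT was lost with the Y-linked covariate (adjusted p = 0.0797). The difference from db/+ passed without db/db 1 (adjusted p = 0.0215) and with the acinar covariate (adjusted p = 0.00698).

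The promoter of Hspa5 carries the ER stress response element (ERSE), the letters CCAAT and CCACG separated by 9 bases, which is bound by NF-Y at its first part and by ATF6 or XBP1 at its second. The RefSeq bases before the start of Hspa5 (GRCm38.p6, chr2:34771840-34772089, plus strand, 5′ to 3′) are shown with the ERSE in capitals, because this gene is the standard readout of the response:
Hspa5: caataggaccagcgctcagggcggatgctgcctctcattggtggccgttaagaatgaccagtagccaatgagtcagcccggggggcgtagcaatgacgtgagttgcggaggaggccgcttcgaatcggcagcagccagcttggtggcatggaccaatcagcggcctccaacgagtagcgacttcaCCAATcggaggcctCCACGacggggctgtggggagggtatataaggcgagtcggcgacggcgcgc

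In windows of 300 bases (250 before to 50 after the start) of RefSeq promoters, searched on both strands, an ERSE was found for 9 of the 35 ER genes that have a window in the table used, for 37 of all 27025 symbols (0.137%) and for 18 of the 10901 tested genes with a window (0.165%). The element was first described in promoters of ER chaperones, several of them among these genes, so the share is a description. The 10 sites, read 5′ to 3′ on the strand that matches and with the fixed bases in capitals, are shown side by side so that the spacer can be compared with the genes' values given below:
Hspa5 (chr2:34772025-34772043): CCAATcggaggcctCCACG
Dnajc3 (chr14:118937827-118937845): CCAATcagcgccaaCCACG
Creld2 (chr15:88819520-88819538): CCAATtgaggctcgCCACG
Hsp90b1 distal (chr10:86705638-86705656): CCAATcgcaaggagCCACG
Hsp90b1 proximal (chr10:86705533-86705551): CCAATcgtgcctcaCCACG
Calr (chr8:84847075-84847093): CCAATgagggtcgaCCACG
Canx (chr11:50325800-50325818): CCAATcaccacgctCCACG
Pdia6 (chr12:17266491-17266509): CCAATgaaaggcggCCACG
Derl3 (chr10:75893242-75893260): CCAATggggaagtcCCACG
Syvn1 (chr19:6046532-6046550): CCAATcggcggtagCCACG

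A related element, ERSE-II (ATTGG, 1 base, CCACG), was found for 2 ER genes, Dnajb11 and Herpud1, and for 12 of all symbols (0.0444%). The XBP1 element TGACGTGG was found for 1 ER gene, Vcp, and for 193 symbols (0.714%). No match overlapped another among these genes. As a measure for the calls that follow, 21.8% of all genes tested were higher in db/db against WT. In db/db against db/+ 20.6% were higher and 19.7% lower, and in db/+ against WT 0.606% were higher. With an ERSE or ERSE-II in the window, 8 of 11 ER genes were higher in db/db against WT (median log2 fold change 0.66), 5 were higher and 1 lower in db/db against db/+ (0.38), and 4 were higher in db/+ against WT (0.39). With neither, 19 of 24 were higher in db/db against WT (0.61), 19 in db/db against db/+ (0.66) and 1 in db/+ against WT (0.00). Of the 7 genes without a window, 5 were higher in db/db against WT, 4 in db/db against db/+ and 1 in db/+ against WT. A match of letters is no proof of a bound site, and no test was made of these counts.

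Of the 10 genes of the BiP system, 9 rose in db/db against WT islets (21.8% of all genes) and 6 against db/+ islets (20.6%). In db/+ against WT islets 2 were higher (0.606%). Sil1, the nucleotide exchange factor that lets BiP release its substrate, changed by the largest factor of these 10. It was at 157, 146 and 171 CPM in db/db libraries, against 72.5, 68.7 and 65.3 CPM in db/+ libraries and 53.7, 57.2 and 59.2 CPM in WT libraries. No db/db library came near the other groups, and the log2 fold change was 1.48 ± 0.08 (adjusted p = 1.46e-08) against WT and 1.20 ± 0.08 (adjusted p = 9.33e-08) against db/+. Hyou1 (GRP170), the other exchange factor, rose less, by 0.49 ± 0.12 on the log2 scale against WT (adjusted p = 0.00668) and 0.39 ± 0.12 against db/+ (adjusted p = 0.0218). The call of Hyou1 against db/+ was lost in 7 alternatives, among them without db/db 3, db/+ 2 or db/+ 3 (adjusted p of 0.105, 0.0555 and 0.0946).

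Creld2, a cysteine-rich ER protein induced by ER stress, had a different level in each group. It was at 287, 327 and 398 CPM in db/db libraries, against 205, 223 and 209 CPM in db/+ libraries and 101, 135 and 142 CPM in WT libraries. The groups did not overlap, and the log2 fold change was 1.42 ± 0.14 (adjusted p = 1.48e-05) for db/db against WT, 0.67 ± 0.14 (adjusted p = 0.00284) for db/db against db/+ and 0.75 ± 0.14 (adjusted p = 0.0385) for db/+ against WT. Its call in db/+ was lost in 10 of the alternatives, among them leaving out any db/+ library.

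Dnajc3 (p58IPK), a J-domain partner of BiP, was at 1104, 1119 and 1274 CPM in db/db libraries, against 553, 551 and 629.5 CPM in db/+ libraries and 453, 667 and 616 CPM in WT libraries. Every db/db library was well above the other 6, and the gene rose by 1.01 ± 0.13 (adjusted p = 4.27e-05) against WT and 1.01 ± 0.13 (adjusted p = 4.47e-05) against db/+, while its value for db/+ against WT was -0.00 ± 0.13. Sdf2l1, a partner of BiP and ERdj3, rose by 1.23 ± 0.15 against WT (adjusted p = 9.04e-05) and 1.0 ± 0.15 against db/+ (adjusted p = 0.000365). Hspa13 (an Hsp70-like ATPase) rose by 0.49 ± 0.13 and 0.52 ± 0.13 in the same comparisons. Dnajb11 (ERdj3) passed against WT, with 0.65 ± 0.19 (adjusted p = 0.0249), and not against db/+, with 0.45 ± 0.19 (adjusted p = 0.0934). The call of Dnajb11 against WT was lost in 8 alternatives, among them without db/db 3 (adjusted p = 0.0719), and its difference from db/+ passed in 5. The calls of Hspa13 were lost in 6 alternatives against WT and in 4 against db/+.

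Manf, a secreted ER stress factor that protects beta cells, had another order, highest in db/+. It was at 462, 468 and 564 CPM in db/db libraries, against 627, 577 and 598 CPM in db/+ libraries and 322, 427 and 436 CPM in WT libraries. Manf passed against WT in both db/db, with 0.33 ± 0.12 (adjusted p = 0.033), and db/+, with 0.60 ± 0.12 (adjusted p = 0.0363), and its value for db/db against db/+ was -0.27 ± 0.12 (adjusted p = 0.0788). Its call in db/db against WT was lost in 9 alternatives, among them without db/db 3 (adjusted p = 0.154), WT 1 (0.138) or db/+ 2 (0.0503). Its call in db/+ was lost in 10, among them leaving out any db/+ library. Dnajb9 (ERdj4), which recruits BiP to IRE1α and is a target of spliced XBP1, did not pass in any comparison. It was at 327, 307 and 332 CPM in db/db libraries, against 272, 298 and 359 CPM in db/+ libraries and 229, 356 and 308 CPM in WT libraries. The 95% interval of its log2 fold change was -0.21 to 0.44 for db/db against WT.

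GRP94 (Hsp90b1) is the Hsp90 of the ER, and the lectin chaperones calreticulin (Calr) and calnexin (Canx) hold glycoproteins. Of these 3 genes, 1 was higher in db/db against WT (21.8% of all genes). Against db/+ none was higher (20.6%) and 1 was lower (19.7%), and 1 was higher in db/+ against WT (0.606%). Hsp90b1 was at 2244, 2556 and 2727 CPM in db/db libraries, against 2607, 2216 and 1966 CPM in db/+ libraries and 1516, 1729 and 1739 CPM in WT libraries. All db/db and all db/+ libraries lay above the WT libraries, with 0.59 ± 0.12 (adjusted p = 0.0011) for db/db against WT, 0.15 ± 0.12 (adjusted p = 0.329) for db/db against db/+ and 0.45 ± 0.12 (adjusted p = 0.0803) for db/+ against WT.

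Calr (chr8:84842088-84846931) was highest in db/+ islets. It was at 1186, 1111 and 1331 CPM in db/db libraries, against 1768, 1685 and 1627 CPM in db/+ libraries and 1039, 1164 and 1107 CPM in WT libraries. Every db/+ library lay above every db/db and WT library, and the log2 fold change was 0.13 ± 0.09 (adjusted p = 0.267) for db/db against WT, -0.49 ± 0.09 (adjusted p = 0.000957) for db/db against db/+ and 0.62 ± 0.09 (adjusted p = 0.00892) for db/+ against WT. Its call against db/+ was lost with the title letter as a covariate (adjusted p = 0.0854), and that of db/+ against WT without db/+ 1 (0.063) or db/+ 2 (0.0625). Canx was at 916, 924 and 941 CPM in db/db libraries, against 1054, 1049 and 1026 CPM in db/+ libraries and 954, 1043 and 952 CPM in WT libraries. It did not pass in any comparison, although all db/db libraries lay below all WT libraries (-0.08 ± 0.08, adjusted p = 0.41).

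**Figure D4:**
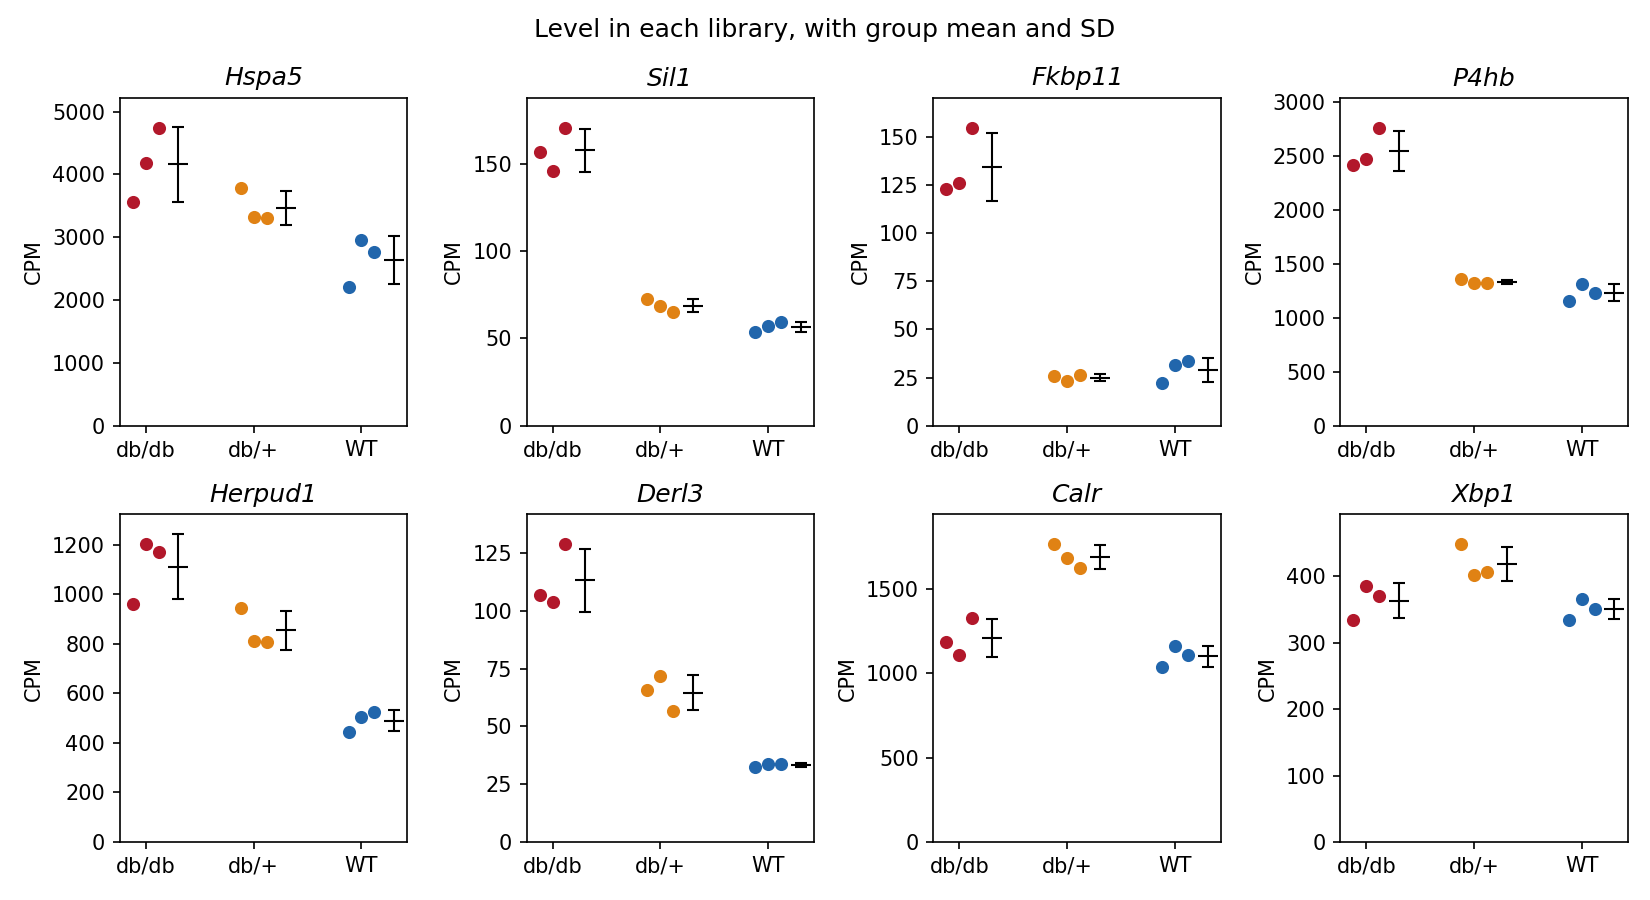
CPM of 8 ER genes in each library (points), db/db left, then db/+, then WT, with the mean and SD of each group (black, n = 3 each); each panel has its own axis from 0. Sil1, Fkbp11 and P4hb are separated in db/db, Herpud1 and Derl3 step down over the 3 groups, Calr is highest in db/+, and Xbp1 overlaps between db/db and WT.

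All 5 disulfide isomerases rose in db/db, against both WT (21.8% of all genes) and db/+ (20.6%). None was called between db/+ and WT (1.43% of all genes). P4hb (protein disulfide isomerase itself, chr11:120560298-120573253), at 892 ± 65.2 CPM per kb in db/db islets, 468 ± 6.50 in db/+ islets and 432 ± 27.6 in WT islets, ranked next to Hspa5 in level per length in db/db and WT, while in db/+ Calr did, at 588 ± 24.6 CPM per kb. It was at 2416, 2473 and 2764 CPM in db/db libraries, against 1359, 1328 and 1326 CPM in db/+ libraries and 1159, 1317 and 1230.3 CPM in WT libraries. The db/db libraries lay well above the others, with 1.05 ± 0.09 (adjusted p = 1.1e-06) against WT and 0.93 ± 0.09 (adjusted p = 3.13e-06) against db/+. Pdia6 was at 1049, 1083 and 1262 CPM in db/db libraries, against 590.2, 582 and 561 CPM in db/+ libraries and 484, 617 and 603 CPM in WT libraries. Its log2 fold change was 0.99 ± 0.11 (adjusted p = 6.95e-06) against WT and 0.97 ± 0.11 (adjusted p = 9.05e-06) against db/+.

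Pdia4 (ERp72) was at 605, 586 and 747 CPM in db/db libraries, against 421, 407 and 426 CPM in db/+ libraries and 286, 386 and 374 CPM in WT libraries. It had no overlap between db/db and the other groups and changed by 0.89 ± 0.12 (adjusted p = 6.15e-05) against WT and 0.63 ± 0.12 (adjusted p = 0.000987) against db/+. Pdia3 (ERp57), which works with calnexin and calreticulin, rose by 0.50 ± 0.10 (adjusted p = 0.00175) and 0.53 ± 0.10 (adjusted p = 0.00131) in the 2 comparisons. Both calls of Pdia3 were lost with library totals (adjusted p of 0.101 and 0.0862) and with the letter (0.0915 and 0.321). Dnajc10 (ERdj5), a reductase that opens disulfides for degradation, rose by 0.45 ± 0.08 against WT and 0.75 ± 0.08 against db/+.

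The largest change of all 42 genes was that of Fkbp11 (chr15:98724368-98728198), a peptidyl-prolyl isomerase of secretory cells. It was at 123, 126 and 155 CPM in db/db libraries, against 25.8, 23.0 and 26.1 CPM in db/+ libraries and 21.9, 31.2 and 33.5 CPM in WT libraries. No db/db library was near the other 6, and the gene rose 4.68-fold against WT (2.23 ± 0.15, adjusted p = 5.78e-07, on the log2 scale) and by 2.43 ± 0.15 (adjusted p = 3.04e-07) on the log2 scale against db/+. Fkbp2, its relative, was at 105, 97.2 and 106 CPM in db/db libraries, against 54.8, 49.2 and 56.0 CPM in db/+ libraries and 39.8, 56.3 and 55.1 CPM in WT libraries. It rose by 1.03 ± 0.11 (adjusted p = 1.34e-05) against WT and 0.95 ± 0.11 (adjusted p = 2.8e-05) against db/+, and neither isomerase passed for db/+ against WT.

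Chains enter the ER through the Sec61 channel, which the TRAP complex assists. Of the 4 genes measured, 3 rose in db/db against WT (21.8% of all genes) and 4 against db/+ (20.6%). Ssr3, the TRAP gamma subunit, was at 775, 866 and 939 CPM in db/db libraries, against 399, 408 and 448 CPM in db/+ libraries and 357, 485 and 435 CPM in WT libraries. Its log2 fold change was 1.01 ± 0.11 (adjusted p = 1.01e-05) against WT and 1.04 ± 0.11 (adjusted p = 8.64e-06) against db/+, and the db/db values did not overlap with the others. Ssr1, the alpha subunit, was at 524, 536 and 630.1 CPM in db/db libraries, against 327, 356 and 385 CPM in db/+ libraries and 331, 447 and 442 CPM in WT libraries. It rose by 0.47 ± 0.12 (adjusted p = 0.00657) against WT and 0.66 ± 0.12 (adjusted p = 0.000714) against db/+. The call of Ssr1 against WT was lost in 5 alternatives, among them with the acinar covariate (adjusted p = 0.0529), the Y-linked covariate (0.147) and the letter (0.155). That against db/+ was lost in 2, among them with the letter (0.179). Sec61b was at 55.0, 55.6 and 62.0 CPM in db/db libraries, against 38.0, 30.6 and 41.8 CPM in db/+ libraries and 28.8, 37.7 and 49.3 CPM in WT libraries. It rose by 0.58 ± 0.18 (adjusted p = 0.0233) against WT and 0.65 ± 0.18 (adjusted p = 0.015) against db/+. The call of Sec61b against WT was lost in 9 alternatives, among them without db/db 3 (adjusted p = 0.0805), without WT 2 (0.0706) and with the acinar covariate (0.14). That against db/+ was lost in 6, among them without db/db 3 (0.0539) or db/+ 2 (0.0534). The channel pore itself, Sec61a1, passed only against db/+, with 0.40 ± 0.12 (adjusted p = 0.0133), and its value against WT was 0.22 ± 0.11 (adjusted p = 0.136). The call of Sec61a1 was lost in 6 alternatives, among them without db/db 3 (adjusted p = 0.059) or db/+ 1 (0.0681).

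ERAD had 10 of 13 genes higher in db/db against WT (21.8% of all genes) and 9 against db/+ (20.6%). In db/+ against WT 3 were higher (0.606%). Herpud1 (chr8:94386429-94395371), which organises the ubiquitin ligase at the membrane, was at 961, 1203 and 1169 CPM in db/db libraries, against 944, 810.0 and 809 CPM in db/+ libraries and 445, 503 and 523 CPM in WT libraries. It was above WT in both groups, with 1.18 ± 0.11 (adjusted p = 1.85e-06) for db/db and 0.80 ± 0.11 (adjusted p = 0.00497) for db/+. For db/db against db/+ it was 0.38 ± 0.11 (adjusted p = 0.012), and db/db and db/+ did not overlap. That call was lost with library totals, the Y-linked covariate, the letter, and without db/+ 2 or db/+ 3. Its promoter is shown because it has the single ERSE-II ahead of a start among these genes (GRCm38.p6, chr8:94386179-94386428, plus strand, the element in capitals):
Herpud1: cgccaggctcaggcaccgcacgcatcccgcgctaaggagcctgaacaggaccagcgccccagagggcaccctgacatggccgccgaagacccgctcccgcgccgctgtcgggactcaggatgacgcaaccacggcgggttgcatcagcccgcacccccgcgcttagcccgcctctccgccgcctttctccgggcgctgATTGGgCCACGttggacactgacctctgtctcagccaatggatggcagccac

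Derl3 (chr10:75893398-75895941), a derlin of the retrotranslocation channel that secretory cells express, was at 107, 104 and 129 CPM in db/db libraries, against 65.6, 71.6 and 56.4 CPM in db/+ libraries and 32.3, 33.7 and 33.5 CPM in WT libraries. The groups did not overlap, with a 3.42-fold rise in db/db against WT (1.77 ± 0.11, adjusted p = 3.22e-08, on the log2 scale), 0.81 ± 0.10 (adjusted p = 2.7e-05) for db/db against db/+ and 0.96 ± 0.10 (adjusted p = 0.00253) for db/+ against WT. All 3 calls were kept in every alternative run other than the test against a 1.5-fold change. The ERSE of Derl3 lies on the opposite strand, so that the promoter (GRCm38.p6, chr10:75893148-75893397, plus strand) shows its complement read backwards, in capitals:
Derl3: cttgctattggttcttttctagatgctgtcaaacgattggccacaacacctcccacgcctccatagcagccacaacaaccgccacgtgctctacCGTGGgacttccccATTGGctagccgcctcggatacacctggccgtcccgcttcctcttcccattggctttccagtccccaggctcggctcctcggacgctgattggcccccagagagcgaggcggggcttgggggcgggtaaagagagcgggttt

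The other derlins were called in fewer comparisons. Derl1 passed against WT with 0.31 ± 0.09 (adjusted p = 0.0182) and overlapping groups, and Derl2 did not pass in any comparison (0.04 ± 0.09, adjusted p = 0.726, against WT). The call of Derl1 was lost in 7 alternatives, among them without db/db 2, db/db 3 or WT 1 (adjusted p of 0.0725, 0.0884 and 0.0863). The Derl2 gene overlaps Mis12, which had up to 475 counts. Sel1l (chr12:91806043-91849157), the adaptor that joins ERAD substrates to the ligase, was at 664, 554 and 605 CPM in db/db libraries, against 361, 375 and 422 CPM in db/+ libraries and 263, 301 and 294 CPM in WT libraries. It was called in all 3 comparisons, with 1.09 ± 0.09 (adjusted p = 1.21e-06) for db/db against WT, 0.66 ± 0.09 (adjusted p = 0.000101) for db/db against db/+ and 0.43 ± 0.09 (adjusted p = 0.0439) for db/+ against WT. Its call in db/+ was lost in 14 alternatives. Its partner Syvn1 (HRD1), the ligase, was at 123, 129 and 144 CPM in db/db libraries, against 153, 154 and 158 CPM in db/+ libraries and 98.5, 119.6 and 153 CPM in WT libraries. It did not pass in any comparison (0.10 ± 0.13, adjusted p = 0.587, against WT). Its gene overlaps Mrpl49, which had up to 288 counts.

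Os9, the lectin that reads trimmed glycans for degradation, was at 499.6, 543 and 572 CPM in db/db libraries, against 298, 323 and 296 CPM in db/+ libraries and 247, 279 and 256 CPM in WT libraries. The db/db libraries did not overlap with the others, with 1.05 ± 0.08 (adjusted p = 5.63e-07) against WT and 0.82 ± 0.08 (adjusted p = 4.84e-06) against db/+. All 3 EDEM genes, whose products trim mannose to mark glycoproteins for degradation, rose: Edem2 by 1.29 ± 0.13 against WT and 1.27 ± 0.13 against db/+, Edem1 by 0.69 ± 0.10 and 0.63 ± 0.10, and Edem3 by 0.64 ± 0.09 and 0.69 ± 0.09. Of the extraction machinery, Selenos and Ufd1 rose (0.50 ± 0.12 and 0.23 ± 0.08 against WT) and Vcp, the p97 ATPase, did not pass (0.03 ± 0.09, adjusted p = 0.848, against WT). The call of Ufd1 against WT was lost in 12 alternatives, among them without db/db 2, db/db 3, WT 1 or WT 3 (adjusted p of 0.12, 0.062, 0.0862 and 0.0661). That of Selenos was lost in 6, among them with the acinar covariate (0.0807), but with no single library left out.

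**Figure D5:**
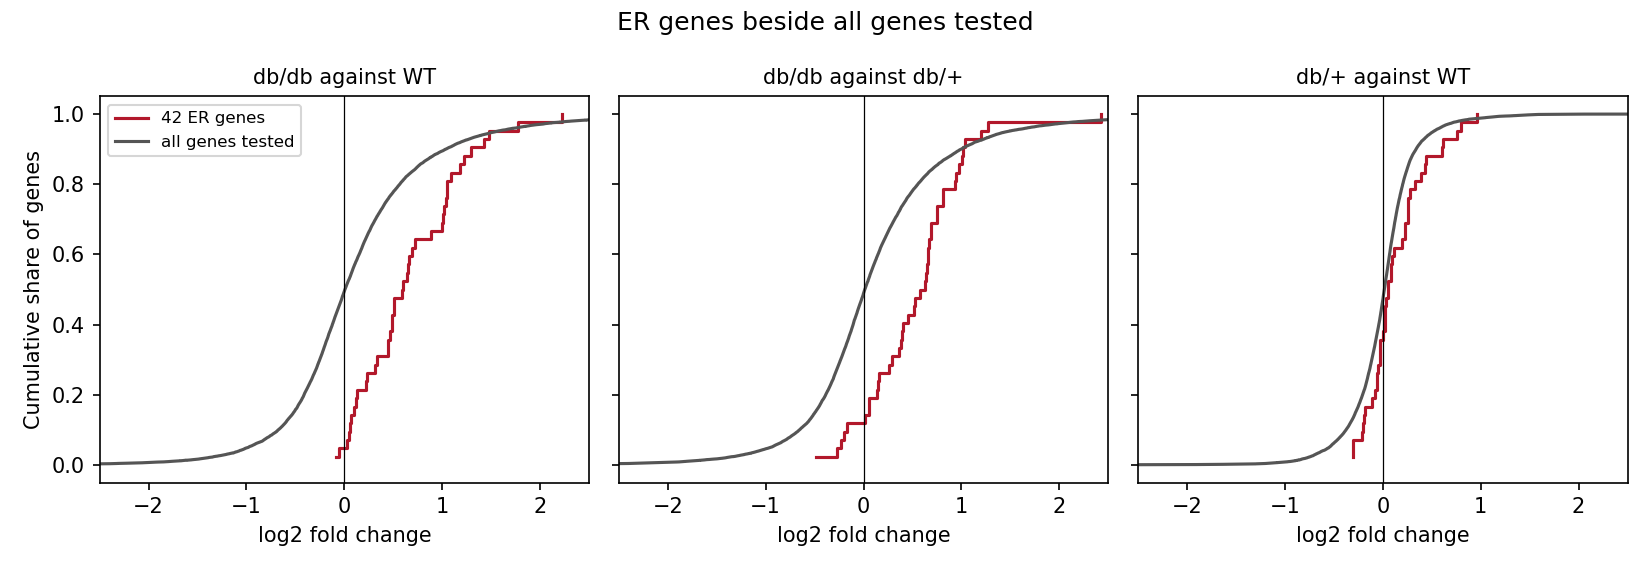
Cumulative share of genes (vertical axis) with a log2 fold change up to the value on the horizontal axis, for the 42 ER genes (red) and all 16826 genes tested (grey) in each comparison. The ER curve lies right of the other over most of its range in both db/db comparisons (medians 0.59 and 0.60) and closer to it for db/+ against WT (median 0.06).

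Of the 5 sensors and regulators 2 rose in db/db, Ern1 and Eif2ak3, against both WT (21.8% of all genes) and db/+ (20.6%). Ern1 (chr11:106397620-106487796), which encodes IRE1α, was at 349.6, 331 and 363 CPM in db/db libraries, against 211, 218 and 191 CPM in db/+ libraries and 242, 257 and 269 CPM in WT libraries. The db/+ libraries were the lowest and the db/db libraries the highest, with 0.44 ± 0.08 (adjusted p = 0.000516) for db/db against WT, 0.75 ± 0.08 (adjusted p = 6.23e-06) for db/db against db/+ and -0.31 ± 0.08 (adjusted p = 0.0752) for db/+ against WT. Eif2ak3 (chr6:70844484-70905241), which encodes PERK, was at 194, 194 and 198 CPM in db/db libraries, against 110.3, 115 and 138 CPM in db/+ libraries and 106, 123 and 127 CPM in WT libraries. Its db/db values lay in a narrow range above all others, and it rose by 0.72 ± 0.09 (adjusted p = 4.06e-05) against WT and 0.69 ± 0.09 (adjusted p = 6.06e-05) against db/+.

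Atf6 (chr1:170704457-170868585) did not pass in any comparison. It was at 263, 275 and 303 CPM in db/db libraries, against 237, 233 and 284 CPM in db/+ libraries and 237, 323 and 311 CPM in WT libraries. The groups overlapped, and the 95% interval of the log2 fold change of db/db against WT was -0.31 to 0.20. Xbp1 (chr11:5520641-5525993) was at 334, 386 and 371 CPM in db/db libraries, against 449, 402 and 406 CPM in db/+ libraries and 335, 365 and 351 CPM in WT libraries. Counts per gene do not separate its spliced from its unspliced form, and the total did not pass: 0.05 ± 0.08 (adjusted p = 0.63) for db/db against WT, with a 95% interval of -0.12 to 0.23, and -0.20 ± 0.08 (adjusted p = 0.0644) for db/db against db/+. Wfs1, an ER membrane protein of beta cells whose loss causes diabetes, was at 124, 131 and 150.0 CPM in db/db libraries, against 85.3, 110.0 and 119.2 CPM in db/+ libraries and 96.6, 152 and 139 CPM in WT libraries. Its log2 fold change had a 95% interval of -0.34 to 0.47 against WT.

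The ER genes named above are part of a wider pathway, described by 206 further genes in 8 lists, of which 201 were tested. In db/db against WT 105 of the 201 were higher and 20 lower (52.2% and 9.95%), with a median log2 fold change of 0.31, and 99 and 20 were in db/db against db/+. Over all genes tested, 21.8% were higher and 19.9% lower in db/db against WT, and 20.6% and 19.7% in db/db against db/+. The lists are given by their counts in db/db against WT, and 3 members that rose and 3 that fell are named from each where it has them.

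Other oxidoreductases rose in 12 of 22 and fell in 3. Qsox1, a sulfhydryl oxidase, rose by 1.34 ± 0.07 on the log2 scale, Prdx4, a peroxiredoxin of the ER, by 1.86 ± 0.15 and Selenof by 0.88 ± 0.09. Ero1lb, the oxidase that recharges protein disulfide isomerases in beta cells, fell to 847 ± 104 CPM in db/db, against 2399.9 ± 41.1 CPM in db/+ and 2375 ± 321 CPM in WT islets (SD, n = 3 each; -1.49 ± 0.12, adjusted p = 5.18e-07, against WT). Txndc16 and Tmx3 also fell, by 0.94 ± 0.10 and 0.51 ± 0.08. In the list of other chaperones and isomerases, which also holds calcium-binding proteins, 16 of 29 rose and 3 fell. Nucb2, a calcium-binding protein, was at 948 ± 61.3 CPM in db/db, 181 ± 14.9 CPM in db/+ and 151 ± 12.0 CPM in WT islets (2.65 ± 0.10, adjusted p = 8.82e-10, against WT). Its relative Nucb1 rose by 1.21 ± 0.08 and Sdf4 by 0.85 ± 0.07, while Dnajc16, Cnpy3 and Dnajb14 had -0.45 ± 0.11, -0.48 ± 0.12 and -0.25 ± 0.07.

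N-glycosylation genes rose in 22 of 33 and fell in 1, and against db/+ they rose in 26 and fell in none. Alg5, which makes dolichyl-phosphoglucose, rose by 1.57 ± 0.11, Prkcsh, the beta subunit of glucosidase II, by 1.29 ± 0.09, and Rpn2, of the oligosaccharyltransferase, by 0.97 ± 0.09, while Alg2 fell, with -0.26 ± 0.09. Translocation and signal peptide genes rose in 18 of 26 and fell in 3. Sec11c, of the signal peptidase, rose by 1.83 ± 0.09, Ssr4 by 1.46 ± 0.10 and Spcs1 by 1.04 ± 0.11, and Wrb, Sec61a2 and Sec61g had -0.83 ± 0.12, -0.53 ± 0.14 and -0.44 ± 0.16.

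Further ERAD genes rose in 12 of 30 and fell in 4. Erlec1, a lectin like Os9, rose by 1.43 ± 0.12, Ngly1 by 0.87 ± 0.08 and Ube2g2 by 0.41 ± 0.08, while Svip, Yod1 and Atxn3 had -0.58 ± 0.09, -0.42 ± 0.09 and -0.44 ± 0.13. Other genes of UPR transcription and processing rose in 3 of 15 and fell in 3, near the shares of all genes. Creb3 (0.67 ± 0.08), Creb3l3 (at 1.97 ± 0.868 CPM in db/db and near the level of 3 counts in db/+, at 0.304 ± 0.193 CPM, and WT, at 0.279 ± 0.124 CPM) and Tmbim6 (0.33 ± 0.07) rose, and Atf6b, the paralogue of Atf6, Nfya, a subunit of NF-Y, and Mbtps1, the protease that first cleaves ATF6, fell, with -0.68 ± 0.16, -0.50 ± 0.13 and -0.32 ± 0.06.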

How the data were processed

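RNA was sequenced from 9 mouse islet libraries, 3 each of db/db, db/+ and WT. The deposited values are whole-number counts per gene symbol, which the authors gave without normalisation. Per the labels' protocols, RNA was extracted with Trizol and libraries were made after ribosomal RNA removal. Per the submitters' processing notes, bcl2fastq 2.20.0.422, TopHat2 2.0.14 and the mm10 genome were used. How reads were counted per gene (program, annotation, strand) is not given in the sources used here. Overlapping genes can therefore share counts. The table has 1 column that matches no sample, which was not used.

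Genes were kept by filterByExpr (16826 of 29854 with counts) and scaled by TMM factors. All 9 libraries were fitted in edgeR 4.0.16 (R 4.3.3; robust quasi-likelihood F-test, two-sided, 6 residual degrees of freedom, common biological coefficient of variation 0.129), with Benjamini-Hochberg adjustment over all genes tested and a threshold of 0.05. Values are mean ± SD or log2 fold change ± SE, the SE derived from the F statistic. Counting intervals and floors (3 counts) cover counting error only. Replicates correlated (Pearson, log2 of CPM + 1) at 0.976 to 0.988 in db/db, 0.990 to 0.992 in db/+ and 0.988 to 0.990 in WT. Levels per kb use exon lengths of GENCODE vM1, which belongs to an older assembly and served for nothing else. Gene positions and promoter windows are RefSeq's on GRCm38.p6, the assembly of mm10. The fit was first tested on simulated data with 200 changed genes. For db/db against WT, db/db against db/+ and db/+ against WT it recovered 29%, 39% and 47% of 1.5-fold changes. Of 3-fold changes it recovered 84%, 85% and 80%. False calls were 6.61%, 4.62% and 9.29% of all calls, the last above the 5% aimed at. Among all genes tested, a gene that did not pass can thus still have changed by 1.5-fold. The simulation gives no share for the 42 ER genes alone. For the 10 ER genes not passing in db/db against WT, each 95% interval of the log2 fold change stayed within 1.5-fold. The lowest bound was -0.34 (Wfs1) and the highest 0.47 (Sec61a1). Intervals of some ER genes reached further elsewhere, such as Wfs1 in db/db against db/+ (-0.04 to 0.77) and in db/+ against WT (-0.70 to 0.10). Figures were drawn with matplotlib 3.10.9.

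The 42 genes and all lists were chosen with earlier results of these data known. Values in every library are given for Hspa5, for the sensors and regulators, and in each role for the 3 genes with the smallest adjusted p in db/db against WT and every gene that fell; Manf, Dnajb9, Herpud1 and Syvn1 were added after their values were seen. From each further list the 3 risen and 3 fallen genes with the smallest adjusted p are named. Alternatives were other scalings, filters and tools (DESeq2 1.42.0, limma-voom with limma 3.58.1), fits with covariates, fits without some genes, a transcript length correction, and each library left out. Leaving out 3 or 2 libraries together was added after the data were seen. C-terminal ER retrieval signals were not analysed here. Part of the strain name and a marker gene are not reported here.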

Additional observations from a re-analysis of the deposited data

How the results depend on the processing

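No paired analysis was possible because the labels give no replicate numbers. Numbers of the 42 ER genes higher in db/db against WT, 32 in the reported fit, were 20 with library totals alone, 15 in a test against a 1.5-fold change and 21 with the Y-linked covariate; none was lower in any alternative. In db/db against db/+, 28 were higher, with 11 in the 1.5-fold test and 14 with the title letter, and 1 was lower, with 5 under library totals, 3 without a filter, with DESeq2 and with only the 2 groups compared, 2 with limma-voom and 0 in the 1.5-fold test. In db/+ against WT, 6 were higher, with 3 under non-robust dispersion and with the title letter, 0 in the 1.5-fold test and 3 without the libraries with both Xist and Y-linked counts, and none was lower, with 2 without a filter and with DESeq2. Without the libraries with both Xist and Y-linked counts WT 2 alone stood for WT, and without those with most Gm42418 and Lars2 counts db/db 3 alone for db/db. These lone libraries were assumed to vary like the other groups. Leaving out each library in turn gave 27 to 32 higher for db/db against WT, 25 to 30 higher and 1 to 2 lower for db/db against db/+, and 2 to 7 higher and 0 to 2 lower for db/+ against WT. In db/db against WT, 18 of the 32 calls held in every alternative other than the 1.5-fold test, in db/db against db/+ 14 of 29 and in db/+ against WT 2 of 6. No result called in the reported fit changed its sign as a call. ERSE counts of ER genes were 9 in either window. The cause of these shifts was not tested.

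Over all genes, db/db against WT had 3670 higher and 3348 lower. These numbers were 2176 and 5317 with library totals, 1194 and 615 in the 1.5-fold test, 1783 and 1382 with the acinar covariate, and 2343 and 2106 without the libraries with both Xist and Y-linked counts; 2173 were higher with the title letter and 1992 lower with the Y-linked covariate. Leaving out each library gave 3092 to 3672 higher and 2682 to 3332 lower. In db/db against db/+, 3459 were higher and 3314 lower, with 2011 and 5265 under library totals, 1062 and 601 in the 1.5-fold test and 1007 and 1026 with the title letter; 1898 were lower with the Y-linked covariate and 2075 without the libraries with most Gm42418 and Lars2 counts. Leaving out each library gave 2765 to 3543 higher and 2610 to 3337 lower. In db/+ against WT, 102 were higher and 138 lower, with 244 and 524 without a filter, 229 and 404 with DESeq2, 32 and 14 under non-robust dispersion, 0 and 0 in the 1.5-fold test, 172 and 235 with the Y-linked covariate, 34 and 11 with the title letter, 33 and 11 with the length correction, and 54 and 43 without the libraries with both Xist and Y-linked counts; 19 were lower with the acinar covariate. Leaving out each library gave 23 to 178 higher and 0 to 252 lower.

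Of the 201 further pathway genes, 105 were higher and 20 lower in db/db against WT, with 59 and 35 under library totals, 30 and 2 in the 1.5-fold test and 68 and 12 with the Y-linked covariate; 5 were lower with the acinar covariate, 12 without the libraries with both Xist and Y-linked counts and 9 without those with most Gm42418 and Lars2 counts. In db/db against db/+, 99 were higher and 20 lower, with 24 and 4 in the 1.5-fold test and 35 and 7 with the title letter; 49 were higher under library totals, 52 with the Y-linked covariate, and 10 were lower without the libraries with most Gm42418 and Lars2 counts. In db/+ against WT, 6 were higher and 1 lower, with 3 and 2 under library totals, 10 and 5 without a filter, 13 and 4 with DESeq2 and 0 and 0 in the 1.5-fold test; 2 were higher under non-robust dispersion, 1 with the title letter and 1 with the length correction, and 2 were lower with upper-quartile factors, 2 with the Y-linked covariate and 0 without the libraries with both Xist and Y-linked counts. Leaving out each library gave 87 to 104 higher and 15 to 21 lower for db/db against WT, 85 to 106 and 15 to 21 for db/db against db/+, and 1 to 8 and 0 to 5 for db/+ against WT.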

Other observations

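The integrated stress response, which PERK and other kinases can start, was described by 21 genes. In db/db against WT 9 were higher (42.9%, against 21.8% of all genes tested) and 2 lower (9.5%, against 19.9%). In db/db against db/+ 4 were higher (19.0%, against 20.6% of all genes) and 6 lower (28.6%, against 19.7%). In db/+ against WT 6 were higher (28.6%, against 0.606% of all genes) and none lower (0.820% of all genes). No other of the 201 further pathway genes was called higher in db/+ against WT, and the count of 6 was 1 without db/+ 1, db/+ 2, db/+ 3 or WT 3. Slc7a11, a cystine transporter, was at 30.7, 42.7 and 27.3 CPM in db/db libraries, against 4.04, 5.65 and 9.87 CPM in db/+ libraries and 3.33, 2.62 and 3.05 CPM in WT libraries, with 3.47 ± 0.32 (adjusted p = 1.58e-05) on the log2 scale for db/db against WT. Chac1, which degrades glutathione, was at 58.5, 83.0 and 67.6 CPM in db/db libraries, against 58.0, 44.4 and 55.8 CPM in db/+ libraries and 36.9, 27.3 and 30.2 CPM in WT libraries, and Trib3, a pseudokinase, at 12.2, 18.2 and 16.7 CPM in db/db libraries, against 13.3, 12.5 and 13.4 CPM in db/+ libraries and 8.57, 7.59 and 6.10 CPM in WT libraries. Both were higher than in WT in db/db, by 1.15 ± 0.15 and 1.08 ± 0.17, and in db/+, by 0.74 ± 0.15 and 0.81 ± 0.17. Atf5 and Eif2ak1 were lower in db/db against WT, with -0.44 ± 0.14 and -0.31 ± 0.09.

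Of 25 genes of ER export and retrieval, 13 were higher and 1 lower in db/db against WT, and 15 higher and none lower against db/+. Over all genes tested, 21.8% were higher and 19.9% lower against WT, and 20.6% and 19.7% against db/+. Kdelr3, one of the receptors that return escaped chaperones to the ER, was at 60.0, 60.5 and 70.4 CPM in db/db libraries, against 6.14, 5.65 and 7.50 CPM in db/+ libraries and 4.84, 6.05 and 6.81 CPM in WT libraries, with 3.44 ± 0.14 (adjusted p = 1.73e-09) on the log2 scale against WT and 3.30 ± 0.14 (adjusted p = 2.28e-09) against db/+. Kdelr1 rose by 0.70 ± 0.08 and Sec13 by 0.62 ± 0.09 against WT. Sec24b, of the COPII coat, was lower in both db/db, with -0.43 ± 0.11, and db/+, with -0.69 ± 0.11 (adjusted p = 0.0181), than in WT.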
